A study of Homo sapiens with 6 samples.

Results

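The 4 genes described here encode the light chains of cardiac myosin, and their loci were examined in chromatin accessibility maps of human cardiomyocytes. They are MYL2 and MYL3, the ventricular chains, and MYL4 and MYL7, the atrial chains. A peak was a member when its midpoint lay in a fixed window of hg19 around a gene: chromosome 12 from 111.32 to 111.39 Mb for MYL2, chromosome 3 from 46.88 to 46.93 Mb for MYL3, chromosome 17 from 45.25 to 45.33 Mb for MYL4 and chromosome 7 from 44.15 to 44.21 Mb for MYL7. In all, 262 of the 478912 deposited peaks were members, 130 of them at the ventricular and 132 at the atrial loci. Merging peaks that overlapped by at least 1 bp gave 76 member regions out of 157560 in the genome. Peaks were assigned to the loci by position only and by no measured value. The loci themselves were chosen with earlier results of these data known.

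The cells came from H9, a human embryonic stem cell line, and were turned into ventricular-like cardiomyocytes with a commercial differentiation kit. At day 15 they were profiled by ATAC-seq, which maps the DNA that the transposase Tn5 can reach. One group was control and the other had ZNF436 knocked down, the gene of a KRAB zinc finger protein, with 3 libraries from independent differentiations in each. All libraries stem from 1 cell line. The sources used here give neither the means of the knockdown nor what control cells received, and the level of ZNF436 was not analysed here. The labelled cell type could be examined only through peaks: 7 windows at cardiac sarcomere genes held 3 to 36 peaks in every library. Of the windows at 2 genes of fast skeletal muscle, that of MYL1 held 0 peaks and that of MYLPF 6 to 11. These numbers therefore do not identify the cell type.

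Each myosin head carries a pair of light chains wrapped around its lever arm, a regulatory and an essential one. MYL2 and MYL7 are the regulatory chains of ventricle and atrium, and MYL3 and MYL4 the corresponding essential chains. The atrial chains are also made in the embryonic ventricle and recede there as the heart matures, so that immature ventricular-like cells in culture are known to express both kinds. An accessible region often marks a promoter or an enhancer, but accessibility is not a measure of expression.

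The promoters of 2 of the 4 genes are shown to give the sequence context of an atrial and a ventricular chain. They were taken from RefSeq on GRCh38.p14, a build other than that of the peaks, and were not placed on the peaks. Both run 5′ to 3′ on the minus strand through the 250 bases before the gene start, with motif matches in capitals.
MYL7, chr7:44141333-44141582: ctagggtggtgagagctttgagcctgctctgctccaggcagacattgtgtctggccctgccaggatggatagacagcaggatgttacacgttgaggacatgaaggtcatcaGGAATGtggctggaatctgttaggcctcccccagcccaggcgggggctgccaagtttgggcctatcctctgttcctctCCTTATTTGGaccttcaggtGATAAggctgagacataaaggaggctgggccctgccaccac
MYL3, chr3:46861685-46861934: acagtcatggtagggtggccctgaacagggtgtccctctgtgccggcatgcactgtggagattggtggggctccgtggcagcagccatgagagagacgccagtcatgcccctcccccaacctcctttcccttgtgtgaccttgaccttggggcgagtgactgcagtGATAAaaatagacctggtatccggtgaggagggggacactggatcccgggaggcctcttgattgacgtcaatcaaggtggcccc

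The motifs were searched on both strands. GATAA, the core recognised by GATA factors, was present in both promoters shown and in 20.4% of the 35116 promoters of the table. In MYL7 it lay 41 to 37 bases before the start and in MYL3 84 to 80 bases before it. The MYL7 promoter also held a CArG box, the element bound by serum response factor, 61 to 52 bases before the start, which 1.16% of all promoters held. CATTCC, the MCAT element bound by TEAD factors, was matched on the other strand 139 to 134 bases before the MYL7 start and was found in 11.9% of all promoters. No match overlapped another motif. Neither stretch contained the MEF2 box (2.8% of promoters) or AAGTG, a core of the NKX2-5 site (37.6%). MYL3 had a second promoter entry in the table, which held no match to GATAA or to any other of these motifs. The GC content of that entry was 80.8% against 59.6% for the one shown and 56.4% for MYL7.

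The lists differed in length before any locus was considered. Control lists held 50719 to 68342 peaks and knockdown lists 87871 to 115864, a ratio of means of 1.77. The depth of the libraries is unknown, and depth and group cannot be told apart in these lists. Control replicate 3 had the longest control list. The member peaks made up 0.0591, 0.0596 and 0.0615% of the control lists and 0.0466, 0.0517 and 0.0580% of the knockdown lists, so their share was lower in every knockdown library. A lower share was common in the genome: the median log2 change over 14387 windows and 65 kb tiles was -0.14. How many tiles had a lower share in every knockdown library was not counted.

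Knockdown libraries had more peaks than control libraries at MYL4 and MYL3, without overlap of the groups, while the groups overlapped at MYL2 and MYL7. The MYL4 window held 7, 8 and 8 peaks in the control libraries (replicates 1, 2 and 3) and 15, 13 and 15 in knockdown. The means were 7.67 ± 0.58 and 14.3 ± 1.15 peaks (SD, n = 3 each), and a two-sided exact permutation test gave p = 0.1, the smallest that 3 against 3 libraries allow. The MYL3 window held 7, 12 and 14 peaks in control and 16, 15 and 16 in knockdown (p = 0.1 by the same exact test). The lowest knockdown value stood only 1 peak above the highest control value there, and the control libraries differed among themselves by up to 7 peaks. MYL2 had 7, 3 and 9 peaks in control and 13, 10 and 8 in knockdown (exact p = 0.2). MYL7 had 9, 9 and 11 peaks in control and 10, 15 and 12 in knockdown (exact p = 0.2). Across 65 kb tiles of the genome, 37.3% had more peaks in every knockdown than in every control library and 0.487% had fewer, so that 2 of 4 loci is near the background.

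**Figure D1:**
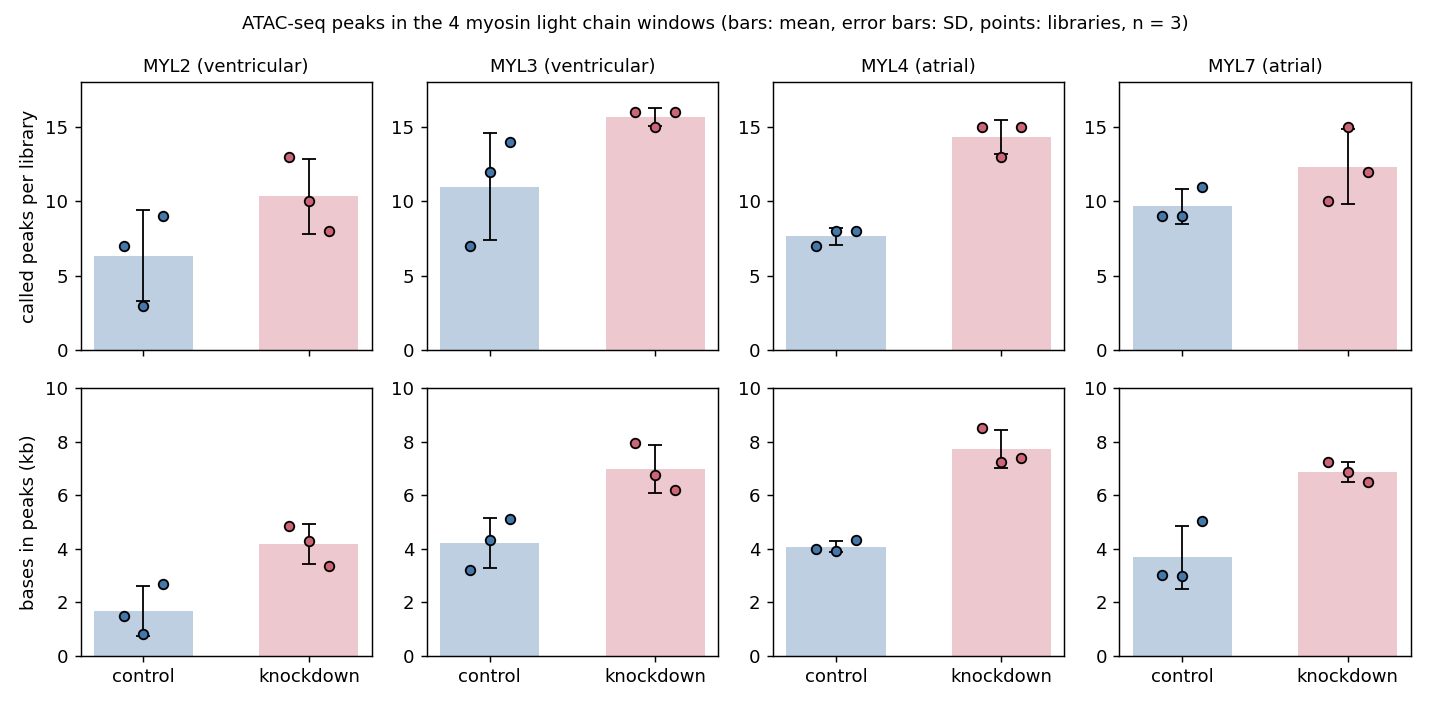
Called peaks (upper row, number per library) and bases inside peaks (lower row, kb) in the 4 windows. Points are libraries, bars are means and error bars are SD (n = 3 each). At MYL4 all knockdown libraries lie at 13 to 15 peaks and all control libraries at 7 to 8.

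Measured as a share of each list, 0 of the 4 loci passed the test at an adjusted p under 0.05. The change was computed as log2 of (peaks + 0.5) per list total, fitted with limma over 14387 windows and tiles, of which 0.883% were called higher and 4.37% lower in knockdown. The median change of all tiles was -0.14, and each test is against 0. The change was 0.03 ± 0.19 (SE) at MYL4 (limma adjusted p = 0.94) and -0.07 ± 0.28 at MYL2 (adjusted p = 0.889). It was -0.28 ± 0.21 at MYL3 (limma adjusted p = 0.393) and -0.51 ± 0.21 at MYL7 (adjusted p = 0.146, unadjusted p = 0.0312). Set against the median of all tiles, which was not tested, these are 0.17 at MYL4, 0.07 at MYL2, -0.15 at MYL3 and -0.37 at MYL7. Without scaling to the list total, MYL4 passed the test with a log2 change of 0.86 (limma adjusted p = 0.016), a setting in which 29.5% of all tiles were called higher and 0.195% lower. With lists cut to the length of the shortest, 0 of the 4 loci were called, against 1.02% of all tiles higher and 1.15% lower.

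The bases covered by peaks were higher in knockdown at every locus, without overlap of the groups, as in 78.2% of all 65 kb tiles. MYL2 had 1.48, 0.83 and 2.67 kb in control and 4.85, 4.29 and 3.36 kb in knockdown. MYL7 had 3.02, 2.99 and 5.04 kb in control and 7.24, 6.86 and 6.49 kb in knockdown. The ratio of means was 2.51 at MYL2, 1.65 at MYL3, 1.89 at MYL4 and 1.86 at MYL7, beside 1.85 for the whole lists. The ratio at MYL2 was above that of the lists, but its change as a share of covered bases did not pass the test either (log2 change 0.30, limma adjusted p = 0.278).

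The map of called regions shows the layout of each locus. Regions were numbered along the chromosome within each window: 15 at MYL2, 24 at MYL3, 17 at MYL4 and 20 at MYL7. Of the 76 regions, 21 were called in all 6 libraries, which is 27.6% against 18.2% of all regions in the genome. The atrial loci had 13 such regions of 37 and the ventricular loci 8 of 39. MYL7 had 7, MYL4 6, MYL3 5 and MYL2 3. In the genome-wide gene order of GRCh38, the neighbours are CCDC63 and CUX2 for MYL2, PRSS50 and PTH1R for MYL3, and CDC27 and ITGB3 for MYL4. No annotation of hg19 was used here, so no region can be assigned to the start of a light chain gene or of a neighbour.

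**Figure D2:**
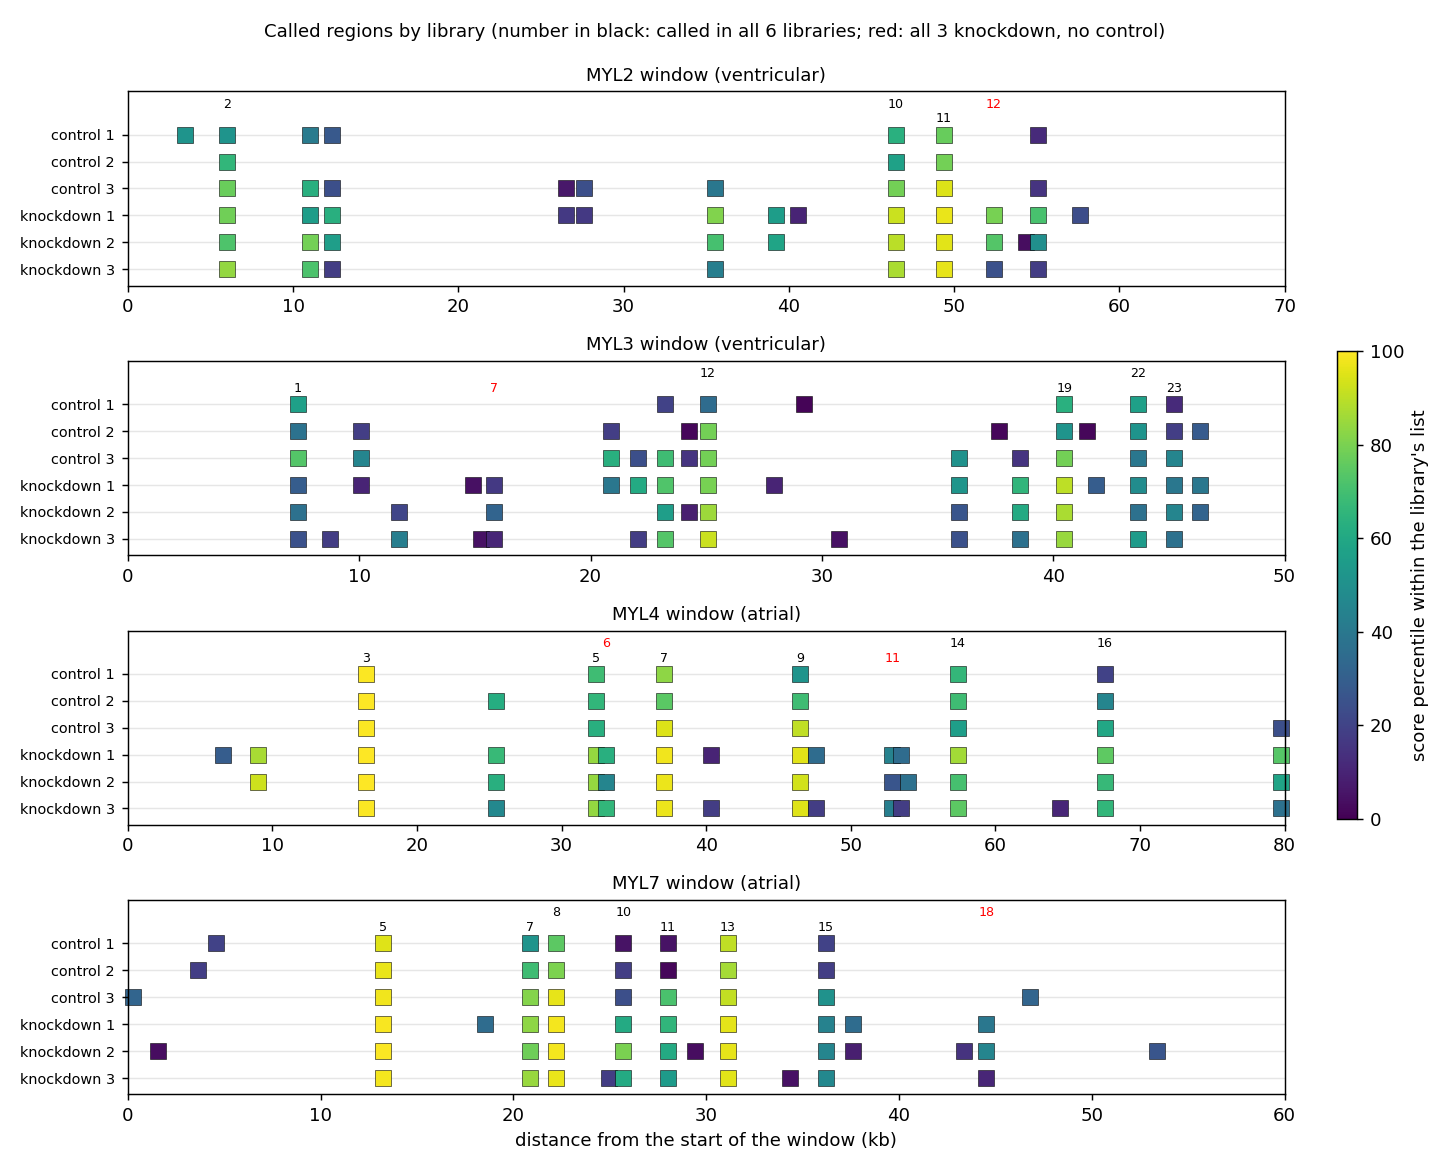
Regions called in each library along the 4 windows, by distance from the start of the window in kb. Each square is a region called in that library, coloured by the percentile of its score within the list of the library. Numbers in black mark the 21 regions called in all 6 libraries and numbers in red the 5 called in all 3 knockdown and no control libraries.

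At each locus 1 region led by its median score percentile within the lists, where 100 is the strongest peak. At MYL4 it was region 3, chr17:45265733-45267203, with percentiles from 99.4 to 99.8 in all libraries. At MYL7 it was region 5, chr7:44162401-44164058, with 95.0, 96.6 and 97.7 in control and 99.0, 99.4 and 98.2 in knockdown. The leading region of MYL2 was region 11, chr12:111368861-111369877, with 76.6, 78.5 and 94.7 in control and 96.6, 95.5 and 96.2 in knockdown. That of MYL3 was region 19, chr3:46920022-46920923, with 63.3, 51.9 and 78.6 in control and 90.0, 87.1 and 84.6 in knockdown. Both leading atrial regions ranked above both leading ventricular regions in each of the 6 libraries. Percentiles within lists of different length cannot show whether a region changed between groups. The ranks tested below were therefore taken over the same set of regions in each library.

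Few regions were called throughout 1 group and nowhere in the other. Every knockdown library and not 1 control library had a peak in 5 of the 76 regions (6.58%, against 7.72% in the genome), and 0 were called in all 3 control and no knockdown libraries (0.131% in the genome). The 5 regions were MYL2 region 12 (chr12:111372243-111372573), MYL3 region 7 (chr3:46895528-46896097), MYL4 regions 6 and 11 (chr17:45282958-45283216 and chr17:45302606-45303101) and MYL7 region 18 (chr7:44194403-44194629). They were of middling to low strength. MYL2 region 12 had list percentiles of 79.4, 73.3 and 24.7, and MYL4 region 6 had 63.1, 45.7 and 65.7. The other 3 lay between 10.7 and 45.7. With lists cut to the 50719 strongest peaks, 47 member regions were left. Of these, 0 had calls in all 3 knockdown and no control libraries (3.03% in the genome), and 2 had calls in all 3 control and no knockdown libraries (1.3%). The 2 were at MYL3 regions 1 and 23, and are named here after their values were seen.

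The remaining regions were called irregularly. In 1 library only were 27 of the 76 regions (38.3% in the genome), 31 were called in no control library (47.7% in the genome) and 8 in no knockdown library (10.7% in the genome). MYL2 region 7, chr12:111355370-111355710, was called in control replicate 3 (list percentile 39.5) and in the 3 knockdown libraries (81.2, 70.5 and 42.3), and not in the other two control libraries. MYL4 region 2, chr17:45258928-45259072, was the strongest region missing from part of the knockdown libraries, with percentiles of 86.7 and 92.5 in replicates 1 and 2 and no call in any other library. Both were picked after their values were seen.

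Strength was compared over the 28749 regions called in all 6 libraries. Within each library these regions were ranked by their highest score, and the ranks, given below as percentiles of the shared regions, were turned into normal scores for limma. Of all shared regions, 0.226% were called higher and 0.96% lower in knockdown (limma adjusted p under 0.05). Of the 21 member regions, 0 were called higher and 1 was called lower, MYL3 region 1. The median change in normal score was 0.267 over the 21 regions and 0.002 over all shared regions. Above 0 were 13 of the 21 estimates, against 14437 of the 28749 in the genome. At an unadjusted p under 0.05, limma gave 5 higher and 2 lower of the 21 member regions, against 2530 higher and 2627 lower of the 28749.

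The regulatory chain of the ventricle, MYL2, had 3 shared regions. Region 10, chr12:111366074-111366882, lay at the percentiles 41.0, 30.8 and 52.0 in control and 68.8, 64.4 and 62.6 in knockdown. The groups did not overlap, and the change of 0.62 ± 0.20 (SE) in normal score did not pass the test (limma adjusted p = 0.174). Region 11 lay at 60.4, 61.6 and 87.7 in control and 86.5, 84.3 and 88.5 in knockdown, with control replicate 3 among the knockdown libraries (0.53 ± 0.27, limma adjusted p = 0.353). Region 2, chr12:111325860-111326192, overlapped fully between the groups, at 27.4 to 48.8 in control and 22.5 to 53.4 in knockdown.

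Its atrial counterpart MYL7 had 7 shared regions, the most of the 4 loci. Region 10, chr7:44175214-44176161, was weak in control, at 0.7, 3.8 and 2.8, and stood at 9.4, 36.4 and 17 in knockdown. Its change of 1.18 ± 0.30 (SE) was the largest rise among the 21 member regions and did not pass the test (limma adjusted p = 0.101). Region 8, chr7:44171398-44173004, lay at 57.8, 64.4 and 91.2 in control and 92.9, 93.9 and 89.6 in knockdown. Region 11, chr7:44177216-44178819, lay at 0.7, 0.2 and 38.6 in control and 12.5, 11.3 and 12.3 in knockdown. In both, control replicate 3 was apart from the other control libraries. Region 13, chr7:44180647-44181612, was strong throughout, at 83.7, 75.5 and 79.1 in control and 84.2, 86.9 and 86.8 in knockdown (0.25 ± 0.18, limma adjusted p = 0.509). The leading region 5 stood at 91.4 to 94.9 and 94.5 to 98.1. Regions 7 and 15, chr7:44170612-44171103 and chr7:44185203-44187219, overlapped between the groups, with changes of -0.03 and -0.15.

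The essential chain of the ventricle, MYL3, had 5 shared regions and held the 1 that passed the test. Region 1, chr3:46886869-46887820, lay at the percentiles 32.2, 12.8 and 42.2 in control and 1.3, 2.5 and 2.2 in knockdown, a change of -1.47 ± 0.27 (SE) in normal score (limma adjusted p = 0.0496). All 3 knockdown libraries were below all control libraries. The call was marginal: it was lost with the replicate number as a block (adjusted p = 0.0761) and on leaving out any 1 library other than control replicate 3 (limma adjusted p from 0.0417 to 0.227 over the libraries left out). With the block, or without any 1 of those other 5 libraries, 0 shared regions of the whole genome were called. Region 19 moved the other way, from 41.0, 24.7 and 52.0 to 61.0, 55.9 and 55.4, without overlap (0.48 ± 0.23, limma adjusted p = 0.326). Region 12, chr3:46904666-46905480, spread widely in both groups, at 13.0, 61.6 and 52.0 in control and 31.3, 51.0 and 76.4 in knockdown. Region 22, chr3:46922867-46924501, had a change of -0.76 ± 0.31 and overlapping groups (limma adjusted p = 0.256), and region 23, chr3:46924745-46925724, was weak in both groups, at 2.3 to 11.4 in control and 2.7 to 4.9 in knockdown.

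Its atrial counterpart MYL4 had 6 shared regions. Region 3 stood between 98.2 and 99.4 in all libraries. Region 7, chr17:45285793-45288350, the widest of the locus, lay at 70.8, 55.0 and 87.7 in control and 91.0, 89.2 and 91.3 in knockdown, without overlap (0.70 ± 0.27, limma adjusted p = 0.235). Region 9, chr17:45296043-45296919, lay at 27.4, 46.6 and 77.9 in control and 82.9, 75.4 and 84.9 in knockdown (0.86 ± 0.34, limma adjusted p = 0.237). Control replicate 3 was again the highest control library in both. Regions 5, 14 and 16, chr17:45282035-45282766, chr17:45306972-45307832 and chr17:45317395-45317749, overlapped between the groups, with changes of 0.23, -0.06 and 0.27.

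The placement of control replicate 3 mattered for the calls. Without it, 3 member regions were called higher in knockdown and 1 lower. The rises were MYL4 region 9 (1.23, limma adjusted p = 0.0384), MYL7 region 8 (1.14, adjusted p = 0.0313) and MYL7 region 11 (1.51, adjusted p = 0.0194). Next to these stood MYL4 region 7 (0.97, limma adjusted p = 0.0532) and the ventricular MYL2 regions 11 (0.82, adjusted p = 0.0623) and 10 (0.76, adjusted p = 0.0844), which did not pass. In the genome 1.46% of the shared regions were then called higher and 3.06% lower. Counted over the libraries as deposited, 5 of the 21 regions had every knockdown percentile above every control percentile, against 11.3% of all shared regions. These were MYL2 region 10, MYL3 region 19, MYL4 region 7 and MYL7 regions 10 and 13. The opposite held for 1 region, MYL3 region 1, against 12.5%.

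**Figure D3:**
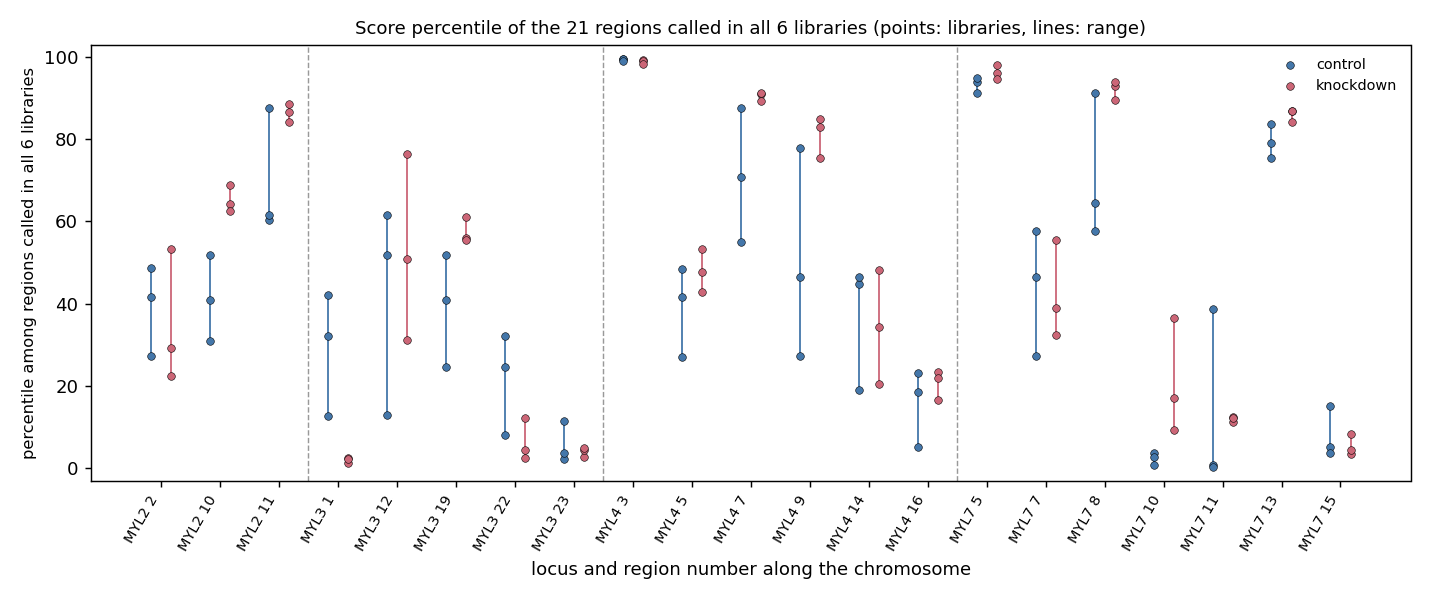
Score percentile among the 28749 regions called in all 6 libraries, for the 21 member regions, ordered by locus and number. Points are libraries and lines their range (control blue, knockdown red, n = 3 each). Knockdown points lie above all control points at MYL2 10, MYL3 19, MYL4 7, MYL7 10 and MYL7 13, and below them at MYL3 1.

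Pooled over shared regions, the ventricular loci had a lower mean rank than the atrial loci in every library, and the difference came from MYL3. The mean of the MYL3 regions was 24.2, 25.5 and 33.1 in control and 20.2, 23.3 and 30.2 in knockdown, the lowest of the 4 loci in each library. MYL2, with means of 42.9, 44.7 and 62.8 in control and 61.6, 57.0 and 68.2 in knockdown, was above MYL7 in every library, where the means were 38.1, 41.2 and 54.2 and 48.2, 51.9 and 52.0. The mean percentile of all shared regions was 36.1 ± 7.14 at the ventricular and 48.0 ± 6.09 at the atrial loci in control, and 38.7 ± 5.00 and 56.0 ± 1.40 in knockdown (SD, n = 3 each). The ventricular minus atrial difference was -12.1, -13.1 and -10.6 in the control libraries and -20.1, -18.8 and -13.1 in knockdown, so the groups touched. It changed by -5.39 from control to knockdown, and no test was made on it since it sums over chosen regions. The spread of single libraries, as the root of the summed variances of both groups, was 3.94. This spread is not an error of the change in means. The direction of the change depended on which regions entered. The change was 4.14 with lists of equal length, and 16.2 with only the leading region of each locus, of which the atrial ones stood at 91.4 or above in all libraries. Peaks per 100 kb were 14.4 ± 4.11 at the ventricular and 12.4 ± 1.09 at the atrial loci in control, and 21.7 ± 2.20 and 19.0 ± 1.09 in knockdown. Their difference changed by 0.56, with a spread of single libraries of 4.42 by the same measure.

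Many member regions were wider in knockdown, as were shared regions in general. In 14 of the 21 regions every knockdown library had more called bases than every control library, and 47.2% of all shared regions had this. MYL2 region 10 covered 148, 313 and 189 bp in control and 775, 793 and 670 bp in knockdown. MYL3 region 23 covered 173, 171 and 301 bp in control and 980, 654 and 547 bp in knockdown, although its rank stayed low. MYL7 region 8 covered 343, 326 and 371 bp in control and 1438, 651 and 1393 bp in knockdown. MYL4 region 3, the strongest, overlapped between the groups in called bases, at 1306, 1215 and 1276 bp against 1449, 955 and 1471 bp. MYL3 region 1 covered fewer bases in knockdown, at 720, 761 and 952 bp against 591, 619 and 232 bp. With each library centred on its median shared region, 0 of the 21 changes in width passed the test (lowest limma adjusted p = 0.139 of the member regions), and 0 and 0.00348% of all shared regions were called wider and narrower. At an unadjusted p under 0.05 limma gave 2004 wider and 2887 narrower regions of the 28749 in the genome. Among the member regions, MYL2 region 10, MYL3 region 23, MYL4 region 7 and MYL7 regions 8 and 11 were wider at that level. MYL3 region 1 and MYL4 region 3 were narrower, the latter by -0.54 on the log2 scale after centring. Without centring on the median, 6 member regions were called wider, in a setting where 9.52% of all shared regions were called wider and 0.108% narrower. The comparison of widths was added after the values were seen.

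**Figure D4:**
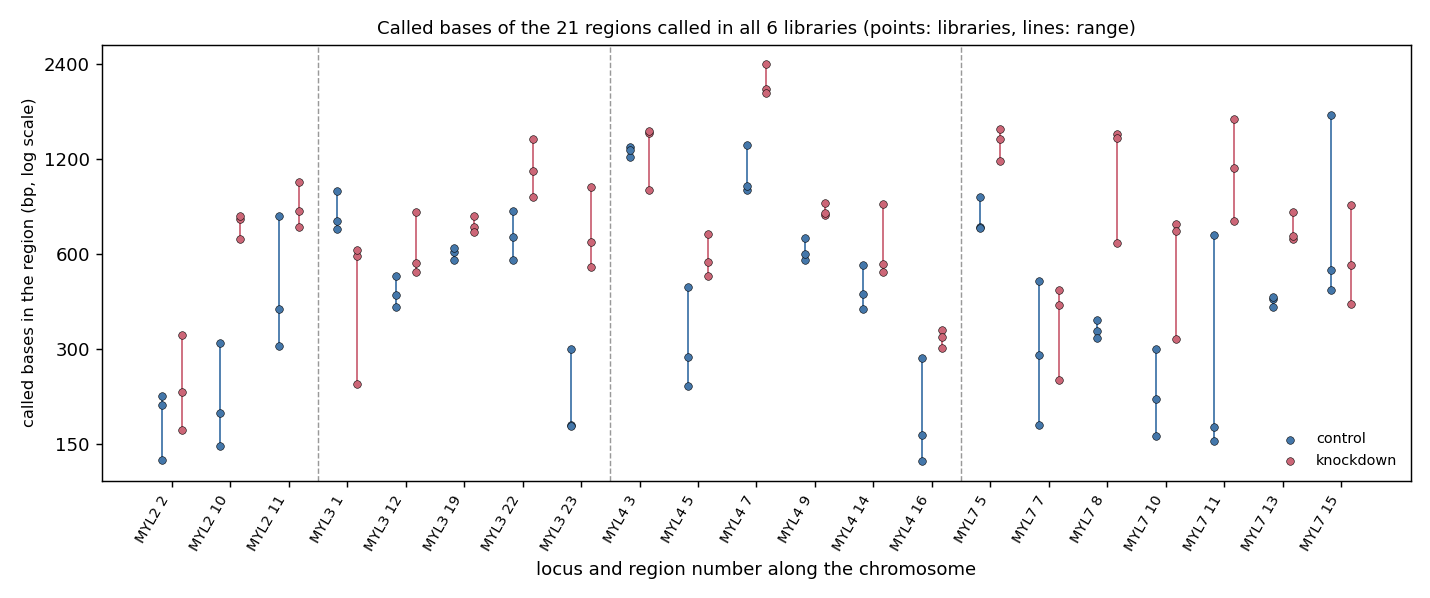
Called bases (bp, log scale) of the 21 member regions called in all 6 libraries. Points are libraries and lines their range (control blue, knockdown red, n = 3 each). The groups lie apart at MYL2 10 (148 to 313 against 670 to 793 bp) and MYL7 8 (326 to 371 against 651 to 1438 bp), among others.

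Other genes of the cardiac sarcomere were measured in 7 windows, set by hand around known hg19 gene positions and checked for chromosome only. They were MYH6 with MYH7 (the myosin heavy chains), TNNT2, TNNI3 and TNNC1 (the troponin complex), ACTC1 (cardiac actin), MYBPC3 (myosin binding protein C) and MYLK3 (the cardiac kinase of the regulatory light chain). As a share of the list, 0 of the 7 were called higher or lower. Their 35 shared regions had a median change in rank of 0.248 in normal score, close to the 0.267 of the light chain regions, with 26 above 0 and 0 called in either direction. By bases covered, ACTC1 and TNNT2 were called higher, with log2 changes of 0.65 and 0.58 (limma adjusted p = 0.0456 and 0.0215), and MYLK3 lower (-0.48, adjusted p = 0.0159), whereas 0 of the 4 light chain loci were called. In that setting 2.97% of all tiles were called higher and 17.6% lower.

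Windows at 7 further loci held myosin light chains that are not the cardiac ones. MYL1, a chain of fast skeletal muscle, had 0 peaks in each of the 6 libraries. MYLPF, the regulatory chain of fast skeletal muscle, had 11, 11 and 7 peaks in control and 9, 6 and 6 in knockdown, and its share of the list fell by 1.26 on the log2 scale (limma adjusted p = 0.0224). Its groups overlapped in peak number, and the call was lost with median ratio scaling (limma adjusted p = 0.0553), with lists of equal length (0.206), without scaling (0.184) and without knockdown replicate 1 (0.0511) or 3 (0.0635). Its window held 4 shared regions with a median list percentile of 97.1, and whether these belong to the gene or to a neighbour was not tested. The windows of MYL5, MYL6, MYL9, MYL10 and MYL12A with MYL12B were not called by peak share, and by bases covered MYL5 (log2 change -0.41, limma adjusted p = 0.0455) and MYLPF (-0.75, adjusted p = 0.0035) were called lower. The 20 shared regions of these windows and of MYLPF had a median change in rank of -0.05, with 8 above 0 and 0 called.

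The comparison windows most like each locus were found by Pearson's r of the peak number per list total over the 6 libraries, as a description. The values share the library and its list length. MYL2 was most like MYL12A with MYL12B (r = 0.69) and MYL9 (0.64), MYL3 like TNNI3 (0.86) and MYL6 (0.82), MYL4 like MYL10 (0.62) and MYL6 (0.60), and MYL7 like TNNC1 (0.83) and MYLK3 (0.76).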

How the data were processed

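ATAC-seq peaks were analysed for 3 control and 3 ZNF436 knockdown libraries. The submitters' processing notes list hg19, bedtools 2.30.0 and Bowtie2 2.4.5 without saying what each did. The authors deposited 1 peak list per library, with a whole-number score for each peak. Peak names begin with MACS and name 1 library. The version and threshold of the caller, any Tn5 shift and any removal of duplicates are not stated in the labels or headers. The lists hold no read counts, so depth is unknown. The score is the authors' own value and was used only for ranks.

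The members, lists and tests were chosen with earlier results of these data known. The comparison windows were set by hand around known hg19 gene positions and checked for chromosome only. Peaks were counted by midpoint in the windows and in 65 kb tiles, and tiles with a mean of at least 2 peaks entered limma 3.58.1 in R 4.3.3 (robust, with a mean-variance trend for tiles and none for ranks, Benjamini-Hochberg adjustment, threshold 0.05). Ranks over shared regions used average ranks for ties. The regions named are those called in all 6 libraries, or in all 3 of 1 group and none of the other, unless said otherwise. The functions were tested on simulated data. Python 3.11.15, pandas 2.3.3 and scipy 1.17.1 did the rest. p-values measure the spread between differentiations of 1 cell line.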

Additional observations from a re-analysis of the deposited data

How the results depend on the processing

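The peak share of the 4 loci passed no test in any planned setting. Without scaling, where the peak number and not the share is tested, MYL4 was called higher (0.86, limma adjusted p = 0.016). In that setting 29.5% of all tiles were called higher. Against 0 member regions higher and 1 lower in rank, there were 0 lower with untransformed percentiles, with the score of the longest peak and with the replicate block. With lists of equal length, 0 of the 15 member regions still shared were called, but MYL3 region 1 was not among them and could not be tested. The block also left 0 shared regions called in the genome, against 65 higher and 276 lower without it. With 1 library left out, the calls ranged from 0 to 3 for higher and from 0 to 1 for lower regions; the 3 came without control replicate 3. Of 204 values of single member regions under alternatives, 193 kept their side of the threshold, 8 lost the call, 3 gained one and 0 called values reversed. By called bases, 6 member regions were wider when values were not centred, a setting in which 9.52% of all shared regions were.

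Ventricular regions called in all libraries numbered 8, and 5 with equal lists. Ventricular regions called only in knockdown numbered 2, and 0 with equal lists, 4 when 2 of 3 libraries sufficed and 2 to 5 with 1 library left out (5 without control replicate 3). Those called only in control numbered 0, and 2 with equal lists. Atrial regions called only in knockdown numbered 3, and 0, 8 and 3 to 6 in the same settings (6 without knockdown replicate 2, 5 without knockdown replicate 3). Of all regions in the genome, 7.72% were called only in knockdown, and 3.03% with equal lists. For 2 of 3 libraries and with 1 library left out, the genome-wide share was not counted. The member counts in those settings therefore have no background and show no excess. Shorter lists or fewer libraries by themselves change such counts; other causes were not tested. The change in the ventricular minus atrial percentile was -5.39, and 4.14 with equal lists and 16.2 with leading regions only; the cause was not tested.

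Deviations from the group mean had correlations of -0.03, 0.034 and -0.005 between libraries of the same number, so the numbers gave no sign of pairing. Depth is unknown and limits every call.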
